A study of Danio rerio with 2 samples.

Results

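Other-fate inhibitory cells and hmx inhibitory cells were compared in single-cell RNA-seq of EGFP-positive trunk cells from 48 h zebrafish embryos. Both sets were inhibitory neurons without a detected transcript of evx2, and they were separated by the fate factors that their transcripts carried. Other-fate inhibitory cells had at least 1 unique molecular identifier (UMI, a count of 1 captured transcript) of en1b, gata2a, gata3, tal1, dmrt3a or lbx1a. The hmx inhibitory cells had none of those 6 genes and at least 1 UMI of hmx2 or hmx3a. All cells of both sets had at least 1 UMI of the neuronal gene elavl3, at least 1 UMI of slc6a5, slc6a1b, gad1b or gad2, and 0 of evx2. Of 8127 cells that passed quality limits, 369 were other-fate cells and 592 were hmx cells. A further 595 inhibitory cells without evx2 carried a UMI of neither gene group and belonged to neither set.

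The embryos came from an incross of evx1i232/+;evx2sa140/+ fish homozygous for Tg(evx1:EGFP)SU2, a reporter that marks V0v spinal interneurons. Both sides of the comparison shared this origin, with no treatment. Embryos of all genotypes were pooled before sorting, so no cell has a known genotype, and the reporter labelled further cells than V0v neurons. The 2 libraries carried the same labels apart from the words OtherGFP and AllGFP in their titles, which were not explained, and they were taken as 2 samples that may be technical. Library 1 gave 97 other-fate and 319 hmx cells, and library 2 gave 272 other-fate and 273 hmx cells.

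V0v interneurons express Evx factors and release glutamate, and Evx factors are known in zebrafish to keep them from becoming inhibitory. The comparison asks how inhibitory cells with transcripts of known fate factors differ from inhibitory cells with transcripts of hmx genes. En1 marks the neighbouring V1 inhibitory interneurons, Gata2, Gata3 and Tal1 specify V2b interneurons and the cerebrospinal fluid-contacting KA cells, Dmrt3 marks dI6 interneurons, and Lbx1 marks dorsal dI4 to dI6 interneurons. The homeobox factors Hmx2 and Hmx3a are found in dI2 and V1 spinal interneurons of the zebrafish. The study that reported these libraries also found both genes raised in clusters that it took for mutant V0v cells. It proposes that Evx1 and Evx2 normally hold hmx3a down in V0v neurons. Which of these identities the hmx cells here have was not tested.

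The genes of the selection describe the sets and are not results. In library 1, 29 of the 97 other-fate cells reached the set with a single UMI of the 6 fate genes, and in library 2 this held for 47 of 272. Likewise, 90 of 319 and 61 of 273 hmx cells had a single UMI of hmx2 and hmx3a, while the 595 cells just outside had 0 of both groups. The sets were not exclusive for hmx: 29 and 64 other-fate cells also had an hmx UMI. These lay mostly among en1b cells, of which 74.3% in library 1 and 67.0% in library 2 had an hmx UMI, against 2.38% and 1.55% of the dmrt3a or lbx1a cells. Median depth was 3846 and 4153 UMIs in other-fate cells with an hmx UMI and 3306 and 3839.5 UMIs in those without. A UMI of slc6a5, the glycine transporter of glycinergic neurons, was found in 94.8% and 94.5% of other-fate cells, against 62.4% and 66.7% of hmx cells. A UMI of slc6a1b, a GABA transporter, was found in 17.5% and 23.2% of other-fate cells, against 49.5% and 48.0% of hmx cells.

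Other-fate cells made up 2.72% (95% exact binomial interval 2.21 to 3.30%) of the kept cells in library 1 and 5.97% (5.30 to 6.70%) in library 2, against 8.93% and 5.99% for hmx cells. The intervals cover counting error only. In collagen-high cells without elavl3 and elavl4, which should lack neuronal fates, 3 of 57 and 59 of 662 carried a UMI of the 6 fate genes (5.26% and 8.91%, mostly en1b and gata3) and none carried one of hmx2 or hmx3a. Median depth was 3507 and 3947.5 UMIs in other-fate cells, 3655 and 4098 UMIs in hmx cells, and 5107 and 5656 UMIs in the collagen-high cells. The heat-shock gene hsp70l stood at 7415 CPM (UMIs per 1000000 of the summed UMIs) in other-fate cells and 10111 CPM in hmx cells of library 1, against 77.8 and 98.3 CPM in library 2, and its part in the results below was not tested. The libraries shared 3 cell barcodes, 1 of them within the compared sets. Of genes of non-neuronal cells, 0 of the 6 fibroblast, 5 muscle, 4 blood and 1 skin genes tested passed edgeR's test described below (1 fibroblast gene was higher at an unadjusted p under 0.05, and none passed with DESeq2), while the 1 tested gene of the neural crest list, foxd3, was higher and is described below. By family, the collagen gene col1a1b was higher in dmrt3a or lbx1a cells (log2 fold change 1.86, adjusted p = 0.033), on 0 and 19 UMIs against 5 and 9 in hmx cells. The summed levels of these lists in other-fate cells were 0 and 79.6 CPM for fibroblast and 464 and 571 CPM for muscle genes, against 13.7 and 57.2 CPM and 527 and 489 CPM in hmx cells.

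The UMIs were summed per library and class, and the 2 sets were compared with edgeR's quasi-likelihood test with a term for the library. At a Benjamini-Hochberg adjusted p of 0.05, 1049 of the 9474 genes differed (11.1%), 576 (6.08%) of them higher and 473 (4.99%) lower in other-fate cells. The median log2 fold change over all genes was -0.01. In such sums, fewer cells expressing a gene and less of its RNA per cell cannot be told apart. For 44.4% of genes the levels of the 2 other-fate sums lay wholly above or below those of the 2 hmx sums, so such separation alone is common with 2 libraries. All 27 genes named by rule below were separated in this way. Their choice by adjusted p, sign in both libraries and fold change made this likely beforehand, so it adds no support.

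**Figure D1:**
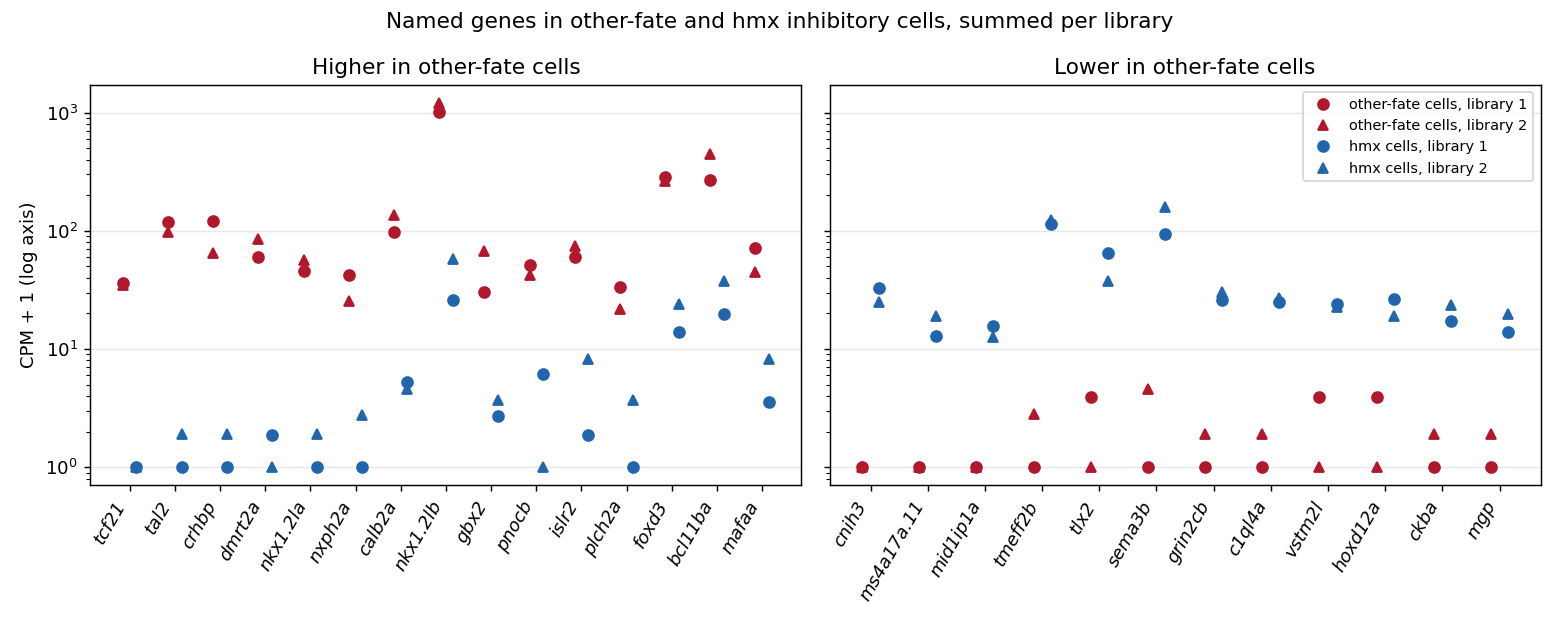
Levels of the 27 genes named by rule, as CPM + 1 on a log axis, in other-fate cells (red) and hmx cells (blue), with circles for library 1 and triangles for library 2. In each gene the 2 red points lie on one side of the 2 blue points, from nkx1.2lb at over 1000 CPM in other-fate cells to genes such as cnih3 with no UMI in them.

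Among the 15 genes named as higher in other-fate cells were several transcription factor genes. tcf21, a basic helix-loop-helix factor gene, had 35.5 and 33.5 CPM in other-fate cells (libraries 1 and 2 here and below), and 0 UMIs in hmx cells. Set against a floor of 3 UMIs over the hmx cells, its level was at least 25.9-fold higher (adjusted p = 1.46e-05). tal2, a relative of tal1 that zebrafish KA cells express, had 118 and 96.8 CPM in other-fate cells, against 0 and 0.894 CPM in hmx cells. With 147 UMIs against 1, the ratio pooled over the libraries was 233 (95% exact counting interval 41.1 to 9255), and the adjusted p was 2.88e-09. Both genes were near absent from hmx cells of either library. A fitted fold change of genes at 0 or 1 UMI depends on the prior count of the fit, so counts and ratios are given for these. Several named genes, such as tcf21, dmrt2a, nkx1.2la and crhbp, had enough UMIs to test only through other-fate cells. Others, such as mid1ip1a, mgp and vstm2l, had enough only through hmx cells. For such genes, the level in the higher set itself helped to decide that they were tested.

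dmrt2a, a doublesex-related factor gene, had 59.2 and 85.1 CPM in other-fate cells, against 0.858 and 0 CPM in hmx cells (114 UMIs against 1, pooled ratio 181 with interval 31.8 to 7191, adjusted p = 1.00e-07). It is the protein-coding gene next to the selection gene dmrt3a in the RefSeq annotation of assembly GRCz12tu. Collagen-high cells also held dmrt2a, in 5.26% and 5.44% of cells, against 8.25% and 9.56% of other-fate cells.

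Both Nkx1-type homeobox genes, nkx1.2lb and nkx1.2la, were higher in other-fate cells. nkx1.2lb had 1017 and 1203 CPM in other-fate cells, against 24.9 and 57.2 CPM in hmx cells, a log2 fold change of 4.83 (SE 0.17, adjusted p = 2.78e-14). Among cells thinned to 2000 UMIs, an nkx1.2lb UMI was found in 46.0% and 47.3% of other-fate cells, against 2.61% and 4.81% of hmx cells. Without thinning, the shares were 50.5% and 51.8% of other-fate cells and 4.70% and 5.49% of hmx cells, and in collagen-high cells they were 0 and 0.302%. nkx1.2la was scarcer, at 44.4 and 55.2 CPM in other-fate cells, against 0 and 0.894 CPM in hmx cells (76 UMIs against 1). In the inhibitory cells with neither gene group, nkx1.2lb had 475 and 921 CPM and nkx1.2la 3.60 and 2.64 CPM. In evx2 cells, nkx1.2lb had 167 and 308 CPM and nkx1.2la 0.689 and 0.275 CPM. As these genes are paralogues, reads could in part be shared between them.

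foxd3, a winged-helix factor gene known from V1 interneurons and neural crest, had 287 and 264 CPM in other-fate cells, against 12.9 and 23.2 CPM in hmx cells (log2 fold change 3.98, SE 0.22, adjusted p = 4.31e-11). bcl11ba, a zinc-finger gene, had 269 and 445 CPM in other-fate cells, against 18.9 and 36.6 CPM in hmx cells (3.73, SE 0.17, adjusted p = 2.30e-12). It had 226 and 429 CPM in inhibitory cells with neither gene group and 228 and 529 CPM in evx2 cells. For bcl11ba the hmx cells thus stood apart, rather than the other-fate cells. gbx2, a gastrulation brain homeobox gene, had 29.6 and 66.1 CPM in other-fate cells, against 1.72 and 2.68 CPM in hmx cells (4.61, SE 0.55, adjusted p = 3.12e-06). The large Maf factor gene mafaa was higher as well, at 71.0 and 43.4 CPM in other-fate cells, against 2.57 and 7.15 CPM in hmx cells (3.53, SE 0.47, adjusted p = 1.34e-05). As a fold change, though not in CPM for gbx2 in library 1, the gap between the sets exceeded that between the libraries in these 4 genes. Their choice by fold change made this likely beforehand.

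Genes of calcium binding, peptides and the cell surface made up the rest of the named genes that were higher. calb2a, which encodes the calcium-binding protein calretinin, had 97.6 and 135 CPM in other-fate cells, against 4.29 and 3.58 CPM in hmx cells (4.95, SE 0.36, adjusted p = 3.16e-09). The opioid-related peptide precursor gene pnocb (4.14, SE 0.74), the neurexophilin gene nxph2a (5.09, SE 0.75), the leucine-rich repeat gene islr2 (4.08, SE 0.43) and the phospholipase gene plch2a (4.06, SE 0.70) were higher at 20.8 to 73.3 CPM in other-fate cells, against 0 to 7.15 CPM in hmx cells. plch2a was not particular to other-fate cells, with 14.8 and 28.1 CPM in evx2 cells, and had 5.39 and 5.29 CPM in inhibitory cells with neither gene group. crhbp, which encodes the corticotropin-releasing hormone binding protein, had 121 and 63.4 CPM in other-fate cells, against 0 and 0.894 CPM in hmx cells. It was held by only 4 and 8 other-fate cells, and a single cell gave 37 of the 41 UMIs in library 1 and 46 of the 70 in library 2. With DESeq2 in place of edgeR, the calls of crhbp (adjusted p = 0.18) and pnocb (adjusted p = 0.39) were lost.

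Genes that were lower in other-fate cells included an axon guidance gene, receptor-linked genes and a posterior Hox gene. tmeff2b, which encodes a transmembrane protein with follistatin-like domains, had 0 and 1.81 CPM in other-fate cells, against 114 and 122 CPM in hmx cells. With 2 UMIs against 269, it was pooled 84.9 times lower (95% interval 23.3 to 705, adjusted p = 4.98e-09). sema3b, a secreted semaphorin gene, had 0 and 3.62 CPM in other-fate cells, against 93.5 and 159 CPM in hmx cells (log2 fold change -5.63, SE 0.36, adjusted p = 3.96e-10). A sema3b UMI was found in 0 of 97 and 4 of 272 other-fate cells, against 64 of 319 and 79 of 273 hmx cells. As in all genes named by rule, the sums of the 2 sets did not overlap in either gene.

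tlx2, a T-cell leukemia homeobox gene, had 2.96 and 0 CPM in other-fate cells, against 64.3 and 36.6 CPM in hmx cells (1 UMI against 116, 73.3 times lower with interval 12.9 to 2918, adjusted p = 1.72e-06). It also had 34.6 and 25.0 CPM in evx2 cells and 28.8 and 10.6 CPM in inhibitory cells with neither gene group. cnih3, an auxiliary protein gene of AMPA-type glutamate receptors, had 0 UMIs in other-fate cells, against 31.7 and 24.1 CPM in hmx cells, and was at least 13.5-fold lower (adjusted p = 1.38e-04). grin2cb, an NMDA receptor subunit gene, had 1 UMI in other-fate cells, against 24.9 and 29.5 CPM in hmx cells (adjusted p = 2.08e-04). ms4a17a.11 and mid1ip1a had 0 UMIs in other-fate cells, against 34 and 30 UMIs in hmx cells, and were at least 7.16-fold and 6.32-fold lower. c1ql4a, vstm2l, hoxd12a, ckba (a creatine kinase gene) and mgp (matrix Gla protein) each had 1 UMI in other-fate cells, against 36 to 57 UMIs in hmx cells, with adjusted p between 1.85e-04 and 7.05e-03. In evx2 cells, ckba had 14.6 and 18.1 CPM, against 16.3 and 22.3 CPM in hmx cells. hoxd12a had 66.8 and 66.2 CPM in evx2 cells, above the 25.7 and 17.9 CPM in hmx cells. tmeff2b missed the threshold (-3.42, adjusted p = 0.099) when both sets were limited to cells with an slc6a5 UMI and no slc6a1b UMI, which left 77 and 203 other-fate cells and 150 and 138 hmx cells. mgp and vstm2l missed it without upper limits on cell depth (adjusted p = 0.073 and 0.061), and mgp also without the library term (adjusted p = 0.062).

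The other-fate cells were a mixture, and each of 3 families was then set against the same hmx cells, so the 3 comparisons share those cells. The families were 35 and 88 en1b cells, 20 and 54 gata2a, gata3 or tal1 cells, and 42 and 129 dmrt3a or lbx1a cells, with 1 cell of library 2 in several families left out. Of 9377 genes tested, 662 (7.06%) passed in en1b cells, with 323 higher (3.44%) and 339 lower (3.62%). In gata2a, gata3 or tal1 cells 406 (4.33%) passed, with 251 higher (2.68%) and 155 lower (1.65%), and in dmrt3a or lbx1a cells 764 (8.15%), with 333 higher (3.55%) and 431 lower (4.6%). The sums of family and hmx cells did not overlap for 44.0%, 43.9% and 45.8% of genes in the same order of families. Differences between families were not tested, and their values are given side by side.

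**Figure D2:**
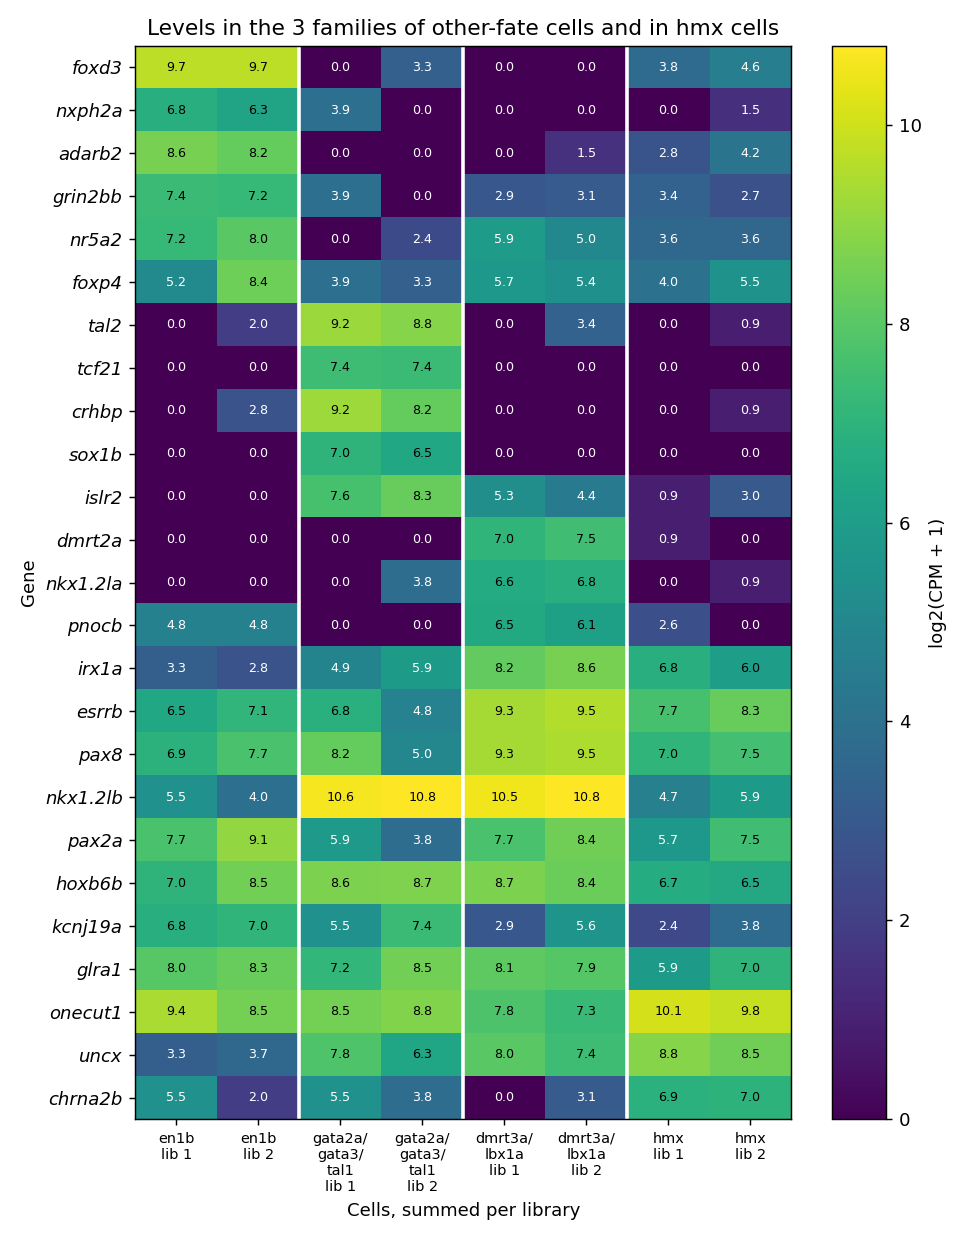
Levels as log2(CPM + 1) of 25 genes in en1b cells, gata2a, gata3 or tal1 cells, dmrt3a or lbx1a cells and hmx cells, each summed in libraries 1 and 2. foxd3 stands at 9.7 in both en1b sums and at 0.0 to 4.6 elsewhere, tal2 at 9.2 and 8.8 in the gata2a, gata3 or tal1 sums, and nkx1.2lb at 10.5 to 10.8 in the sums of gata2a, gata3 or tal1 cells and of dmrt3a or lbx1a cells.

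Of the 8 V1 factor genes listed beside the selection genes, 6 had enough UMIs to test and foxd3 and foxp4 were higher in en1b cells. In en1b cells, foxd3 had 839 and 837 CPM, against 12.9 and 23.2 CPM in hmx cells (log2 fold change 5.52, SE 0.22, adjusted p = 1.74e-26). It had 0 and 8.88 CPM in gata2a, gata3 or tal1 cells and 0 UMIs in dmrt3a or lbx1a cells, so that the level in other-fate cells as a whole came from en1b cells. A foxd3 UMI was found in 62.5% and 64.7% of en1b cells thinned to 2000 UMIs, against 0.980% and 1.85% of hmx cells (77.1% and 78.4%, against 1.57% and 2.56%, without thinning), and in 0 and 0.302% of collagen-high cells before thinning. The RNA-editing family gene adarb2 had 381 and 299 CPM in en1b cells, against 6.0 and 17.0 CPM in hmx cells (4.8, SE 0.33, adjusted p = 8.93e-17). nxph2a (6.57, SE 0.73) and the NMDA receptor subunit gene grin2bb (4.44, SE 0.41) were the other genes named by rule for this family. nr5a2, a nuclear receptor gene, and foxp4, a forkhead gene, were also higher in en1b cells (4.27, adjusted p = 4.92e-16, and 2.78, adjusted p = 1.62e-11). The foxp4 difference came mostly from library 2, where the log2 difference was 2.93 and 1 cell held 41 of its 117 UMIs, against 1.12 in library 1, which had 4 UMIs in 2 en1b cells, and foxp4 UMIs were also found in 61.4% and 77.3% of collagen-high cells.

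Of the 8 genes of the V2b and KA list, tal2, sox1b, sst1.1 and pkd2l1 had enough UMIs to test in the family fit, which the level in this family itself helped to decide. In gata2a, gata3 or tal1 cells, tal2 had 570 and 449 CPM, against 0 and 0.894 CPM in hmx cells (9.86, SE 0.52, adjusted p = 1.54e-21). It had 0 and 2.91 CPM in en1b cells and 0 and 9.44 CPM in dmrt3a or lbx1a cells. tcf21 was confined to these cells among the 3 families, at 171 and 164 CPM, and 6 and 21 of them held a UMI. sox1b, a SoxB1 gene of V2b and KA cells in zebrafish, had 29 UMIs in other-fate cells and 0 in hmx cells, which is at least 15.3-fold higher in the comparison of the whole sets (adjusted p = 1.16e-03). Those UMIs lay in 2 and 6 cells, all of this family, and the sox1b call was lost with DESeq2 (adjusted p = 0.58). islr2 had 199 and 311 CPM in this family, against 0.858 and 7.15 CPM in hmx cells (6.02, SE 0.45, adjusted p = 5.44e-15). The somatostatin gene sst1.1, a product of zebrafish KA cells, passed the test in the family (7.40, adjusted p = 1.88e-13), although a single cell of library 2 held all 96 UMIs of that library and library 1 had 2 UMIs. pkd2l1, a channel gene of KA cells, passed in the family (2.65, adjusted p = 0.038) on 2 and 8 UMIs, 7 of them in 1 cell, and not in the whole set (adjusted p = 0.53).

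In dmrt3a or lbx1a cells, dmrt2a had 131 and 178 CPM, against 0.858 and 0 CPM in hmx cells, and 0 UMIs in the other families (8.22, SE 0.66, adjusted p = 5.08e-14). nkx1.2lb had 1490 and 1747 CPM in these cells, 1595 and 1772 CPM in gata2a, gata3 or tal1 cells and 43.3 and 14.5 CPM in en1b cells. It passed the test in the first family (5.36, SE 0.21, adjusted p = 1.14e-27) and in the second (5.34, adjusted p = 1.03e-26), but not in en1b cells (-1.01, adjusted p = 0.29). The marker list fixed for dI4 and dI6 cells besides the selection genes (lbx1b, lbx2, ptf1a, wt1a, wt1b) gave no gene with enough UMIs to test, with summed levels of 0 and 7.24 CPM in other-fate cells and 4 of its 5 genes at 0. Hence dmrt3a or lbx1a cells are called here only by those 2 genes. calb2a was higher in all 3 families (4.15, 5.73 and 4.82). In en1b cells this rested on 3 of 35 and 2 of 88 cells. These held 11 and 23 calb2a UMIs, with 13 in 1 cell of library 2. bcl11ba passed in en1b cells (3.16) and dmrt3a or lbx1a cells (4.34), and gave 1.13 (adjusted p = 0.15) in gata2a, gata3 or tal1 cells.

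The other lists were chosen with earlier results of these data known, so their counts are descriptions. Each list count of the whole comparison, here and below, is to be read beside the share over all genes, 6.08% higher and 4.99% lower. Of 8 inhibitory neuron factor genes, 5 were higher and 2 lower in other-fate cells (median log2 fold change 0.88). DESeq2 gave 3 higher and 1 lower, and among slc6a5 cells without slc6a1b the count turned to 2 higher and 3 lower. pax8, a paired-box gene of dorsal and V1 inhibitory neurons, had 390 and 412 CPM in other-fate cells, against 131 and 186 CPM in hmx cells (1.38, SE 0.13, adjusted p = 8.74e-08). It stood higher still in inhibitory cells with neither gene group, at 532 and 605 CPM, and had 240 and 331 CPM in evx2 cells. In the families, pax8 gave 2.13 in dmrt3a or lbx1a cells (adjusted p = 1.07e-11) and 0.14 in en1b cells (adjusted p = 0.87). pax2a, a marker of many spinal inhibitory neurons, was higher in en1b cells (1.75) and dmrt3a or lbx1a cells (1.29) and lower in gata2a, gata3 or tal1 cells (-2.45, adjusted p = 2.51e-04), and its paralogue pax2b was lower in the last family too (-4.45, adjusted p = 9.20e-05). lhx1b was higher (1.96), while its paralogue lhx1a, at 881 and 1011 CPM in other-fate cells against 1120.0 and 1672 CPM in hmx cells, was lower (-0.50, SE 0.10, adjusted p = 9.10e-04). pax5 and pax2b also rose (1.06 and 0.71), and missed the threshold in 6 and 5 of 12 alternatives. pax2a (1.22 in the whole set) missed it among slc6a5 cells without slc6a1b (adjusted p = 0.33). Its level was 174 and 336 CPM in other-fate cells and 147 and 352 CPM in inhibitory cells with neither gene group. bhlhe22, which the study had picked among genes higher in mutant-like cells, had 118 and 78.7 CPM in other-fate cells, against 152 and 532 CPM in hmx cells (-1.97, adjusted p = 2.27e-05). The gap in bhlhe22 was small in library 1 and large in library 2, and its call was lost with DESeq2 (adjusted p = 0.23) and without the library term (adjusted p = 0.13).

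Transmitter genes outside the selection changed little on the inhibitory side. slc32a1, which loads GABA and glycine into vesicles, had 843 and 753 CPM in other-fate cells, against 810 and 747 CPM in hmx cells (0.08, SE 0.10, adjusted p = 0.70). Of 7 such genes tested, only the glial-type glycine transporter gene slc6a9 passed (2.23, SE 0.62, adjusted p = 0.020), from 34 UMIs in other-fate cells against 11 in hmx cells, and it was lost in 7 of 12 alternatives. The vesicular glutamate transporter genes were lower in other-fate cells, with slc17a6a at 14.8 and 8.15 CPM, against 40.3 and 51.0 CPM in hmx cells (-2.17, SE 0.33, adjusted p = 6.68e-05). slc17a6b had 0 and 5.43 CPM in other-fate cells, against 14.6 and 26.8 CPM in hmx cells (-2.32, SE 0.58, adjusted p = 9.26e-03), and its call was lost when both sets were limited to slc6a5 cells without slc6a1b (adjusted p = 0.19).

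Most V0v candidate genes of the study were picked from microarrays of sorted V0v cells and followed by in situ hybridization. That study also examined them in these libraries, so they are no independent evidence here. evx1, the partner of evx2, had 47.3 and 42.5 CPM in other-fate cells, against 113 and 98.3 CPM in hmx cells (-1.28, SE 0.24, adjusted p = 9.10e-04). uncx, a homeobox gene, had 169 and 102 CPM in other-fate cells, against 453 and 351 CPM in hmx cells (-1.61, SE 0.15, adjusted p = 8.74e-08), and gave -5.12 in en1b cells against -0.91 in dmrt3a or lbx1a cells. The neurofilament genes nefmb and neff1 were higher in other-fate cells (1.87 each, SE 0.18 and 0.19). nefmb had 491 and 348 CPM in other-fate cells, against 90.0 and 139 CPM in hmx cells. A nefmb UMI was found in 23 of 97 and 43 of 272 other-fate cells, and a neff1 UMI in 19 and 41. In library 1, a single other-fate cell held 42 of 166 nefmb UMIs, and a single cell held 41 of 98 neff1 UMIs. Neither nefma (0.19, adjusted p = 0.39) nor inab (0.02, adjusted p = 0.96) passed. The call of evx1 was lost when both sets were limited to slc6a5 cells without slc6a1b (adjusted p = 0.055).

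Of 18 genes that the study had picked as lower in mutant-like cells, 7 were higher and 1 was lower in other-fate cells (median 0.34). The balance turned among slc6a5 cells without slc6a1b, with 3 higher and 6 lower. pou3f3b, a POU factor gene, had 287 and 243 CPM in other-fate cells, against 109 and 67.0 CPM in hmx cells (1.62, SE 0.17, adjusted p = 3.34e-07), and pou3f1 rose likewise (1.90, SE 0.26). nr5a2 had 76.9 and 96.8 CPM in other-fate cells, against 11.1 and 10.7 CPM in hmx cells (3.03, SE 0.26, adjusted p = 3.82e-08). The call of nr5a2 was lost without en1b cells (1.31, adjusted p = 0.067). pou3f2b, mycb, scrt2 and zfhx3b were also higher (0.95, 1.14, 0.58 and 0.72) and pbx1b lower (-0.49), and each of these 5 missed the threshold in at least 1 alternative. Of the 6 genes picked as higher in mutant-like cells, 2 were higher and 3 lower. otpb, a homeobox gene, had 204 and 297 CPM in other-fate cells, against 473 and 650 CPM in hmx cells (-1.10, SE 0.11, adjusted p = 2.02e-07), and zmat4b was lower too (-1.52), as bhlhe22 was. irx1a, an Iroquois gene, was higher in the whole set (1.02, adjusted p = 6.04e-03), with -3.82 in en1b cells (adjusted p = 1.12e-05) and 1.99 in dmrt3a or lbx1a cells (adjusted p = 3.20e-10), and znf385c rose slightly (0.49), a call that was lost in 8 of 12 alternatives. Of these 6 genes, 0 were higher among slc6a5 cells without slc6a1b by edgeR (0 at an unadjusted p under 0.05) and 2 were lower.

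The Onecut factor genes, which vertebrate spinal neurons express early after birth, were all lower in other-fate cells. They belong to a list of birth-order factors, of which 8 were tested, with 2 higher, 3 lower and 3 that did not pass. onecut1 had 408 and 277 CPM in other-fate cells, against 1104 and 920 CPM in hmx cells (-1.52, SE 0.13, adjusted p = 4.04e-08). onecut2 (-0.70, SE 0.12) and onecutl (-1.80, SE 0.18) followed, and all 3 genes passed in each family, with onecut1 at -1.04 in en1b cells, -1.19 in gata2a, gata3 or tal1 cells and -2.40 in dmrt3a or lbx1a cells. zfhx4 had 748 and 1012 CPM in other-fate cells, against 465 and 619 CPM in hmx cells (0.75, SE 0.09, adjusted p = 4.46e-06). The pan-neuronal genes sncb and stmn2a were lower (-0.67, SE 0.08, and -0.64, SE 0.11), and of 5 neuron markers none was higher by edgeR (1 at an unadjusted p under 0.05, and 0 by DESeq2). Without the library term onecut1 missed the threshold (adjusted p = 0.067), and zfhx4, sncb and stmn2a missed it in that fit too. zfhx4, sncb and stmn2a also missed it among slc6a5 cells without slc6a1b, and onecut2 passed in 11 of 12 alternatives.

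Markers of subsets of V0v cells, which the study drew from these libraries and which are no independent evidence, were examined next. Of 6 markers of the first subset none was higher by edgeR (0 at an unadjusted p under 0.05, and 0 by DESeq2), and cnih3, chrna2b and anos1a were lower in other-fate cells. chrna2b, a nicotinic receptor gene, had 23.7 and 7.24 CPM in other-fate cells, against 118 and 123 CPM in hmx cells (-3.34, SE 0.31, adjusted p = 8.58e-08). Among 3 markers of the second subset, esrrb, an estrogen-related receptor gene, was the 1 that passed and was higher in the whole set (0.60, adjusted p = 1.03e-03), with 1.48 in dmrt3a or lbx1a cells, and it was lower in en1b cells (-1.13) and gata2a, gata3 or tal1 cells (-2.46). Among slc6a5 cells without slc6a1b, chrna2b gave 1.53 (adjusted p = 0.40) and esrrb -0.32 (adjusted p = 0.15), and anos1a lost its call (adjusted p = 0.64). In that alternative 1 of the 4 markers of the first subset that could be tested was higher.

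**Figure D3:**
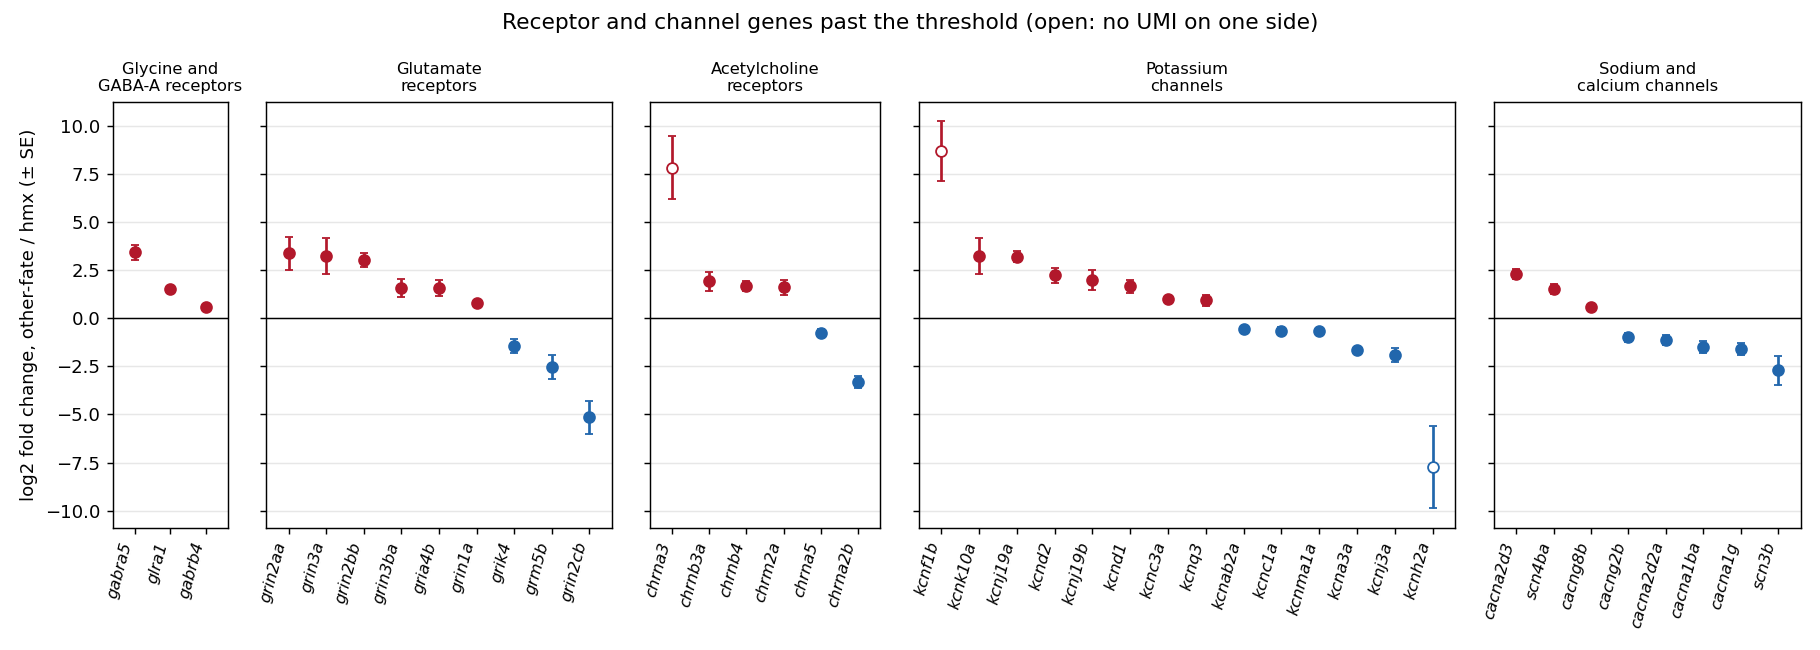
Log2 fold changes (other-fate over hmx cells, ± SE) of receptor and channel genes that passed the test, grouped by list, with red for higher and blue for lower. Open circles mark genes with no UMI on one side, whose fold change depends on the prior count. Of the glycine and GABA-A receptor genes the 3 that were higher are drawn, and gabra5 at 3.41 and kcna3a at -1.66 stand on opposite sides of 0.

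Receptor and channel genes changed in both directions. Of 13 glycine and GABA-A receptor genes tested, 3 were higher and 2 lower (median -0.01, as over all genes). Over all genes tested, 6.08% were higher and 4.99% lower. gabra5, a GABA-A receptor alpha subunit gene, had 88.7 and 63.4 CPM in other-fate cells, against 6.0 and 7.15 CPM in hmx cells (3.41, SE 0.41, adjusted p = 2.91e-06). The glycine receptor gene glra1 had 240 and 287 CPM in other-fate cells, against 58.3 and 131 CPM in hmx cells (1.5, SE 0.16, adjusted p = 7.34e-07). gabra5 and glra1 passed with the same direction in all 3 families and in every one of 12 alternatives. gabrb4 was higher as well (0.58), and missed the threshold in 7 of 12 alternatives.

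Of 23 glutamate receptor genes, 6 were higher and 3 lower (median 0.28), where 6.08% of all genes were higher and 4.99% lower. The obligate NMDA receptor subunit gene grin1a had 343 and 362 CPM in other-fate cells, against 196 and 221 CPM in hmx cells (0.80, SE 0.12, adjusted p = 4.64e-05). The grin2 genes split, with grin2bb higher (3.02, SE 0.37) and grin2cb lower (-5.14, SE 0.86), and the call of grin2bb was lost without en1b cells (0.00, adjusted p = 1.00). Of 9 acetylcholine receptor genes, 4 were higher and 2 lower. chrna3 had 17 UMIs in other-fate cells, against 0 in hmx cells (at least 8.97-fold higher, adjusted p = 2.28e-03), and chrnb4 was higher too (1.67, SE 0.28). In contrast, chrna5 was lower in other-fate cells. Its log2 fold change lay between -0.80 and -0.57 in the 12 alternatives, of which 8 passed.

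Of 36 potassium channel genes, 8 were higher and 6 lower (median 0.07). For these and the other channels, the share over all genes was 6.08% higher and 4.99% lower. kcnj19a, an inward rectifier gene, had 50.3 and 97.7 CPM in other-fate cells, against 4.29 and 12.5 CPM in hmx cells (3.19, SE 0.30, adjusted p = 8.99e-08), and passed in all 3 families (3.72, 3.78 and 1.96). In dmrt3a or lbx1a cells, library 1 held 1 kcnj19a UMI in 1 of 42 cells, and library 2 held 25 UMIs in 20 of 129 cells. As log2(CPM + 1), this was 2.92 and 5.59, against 2.40 and 3.76 in hmx cells. kcnf1b had 32 UMIs in other-fate cells and 0 in hmx cells (at least 16.9-fold higher), and kcnh2a had 0 UMIs in other-fate cells and 26 in hmx cells (at least 5.47-fold lower). kcna3a, a Shaker-type gene, had 121 and 115 CPM in other-fate cells, against 317 and 456 CPM in hmx cells (-1.66, SE 0.18, adjusted p = 5.67e-07). The auxiliary calcium channel gene cacna2d3 led the 3 of 30 sodium and calcium channel genes that were higher, at 210 and 179 CPM in other-fate cells, against 39.4 and 37.5 CPM in hmx cells (2.30, SE 0.26, adjusted p = 1.23e-06), and 5 were lower, against 2 higher and 0 lower of 24 among slc6a5 cells without slc6a1b (2 lower at an unadjusted p under 0.05 by edgeR). Of the 5 lower genes, the T-type channel gene cacna1g (-1.59) gave 0.35 (adjusted p = 0.78) among slc6a5 cells without slc6a1b. kcnh2a was lost in 6 of 10 alternatives.

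Adhesion and guidance genes changed in both directions. Of 40 cadherin and protocadherin genes, 7 were higher and 3 lower (median 0.14), where 6.08% of all genes were higher and 4.99% lower. pcdh11 had 26.6 and 78.7 CPM in other-fate cells, against 6.0 and 3.58 CPM in hmx cells (3.64, SE 0.40, adjusted p = 1.06e-06), and cdh18a was higher likewise (3.35, SE 0.41). pcdh9 had 41.4 and 57.9 CPM in other-fate cells, against 159 and 257 CPM in hmx cells (-1.99, SE 0.18, adjusted p = 4.30e-08). Of 47 axon guidance genes, 15 were higher and 5 lower (median 0.34), against 5 higher and 6 lower of 42 among slc6a5 cells without slc6a1b. Over all 8762 genes of that alternative, 414 were higher and 283 lower. Of 50 guidance genes tested by family, 8 were higher and 7 lower in en1b cells. In gata2a, gata3 or tal1 cells 5 were higher and 4 lower, and in dmrt3a or lbx1a cells 8 and 5. Over all genes, 3.44% were higher and 3.62% lower, 2.68% and 1.65%, and 3.55% and 4.6%, in the same order of families. The semaphorin receptor gene plxna4 had 124 and 152 CPM in other-fate cells, against 27.4 and 9.83 CPM in hmx cells (3.01, SE 0.28, adjusted p = 8.74e-08). ephb3, an Eph receptor gene, had 384 and 470 CPM in other-fate cells, against 183 and 215 CPM in hmx cells (1.15, SE 0.11), whereas efnb3b, which encodes an ephrin ligand of such receptors, had 23.7 and 27.2 CPM in other-fate cells, against 109 and 164 CPM in hmx cells (-2.41, SE 0.21, adjusted p = 3.78e-08). Among the receptors of Slit ligands, robo1 was lower (-0.75) and robo2 (0.47) and robo3 (0.69) were higher, and slit3 itself rose (1.93, SE 0.28). robo1, efnb3b, pcdh9, plxna4 and ephb3 passed in all 12 alternatives, whereas robo2, robo3 and slit3 did not.

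**Figure D4:**
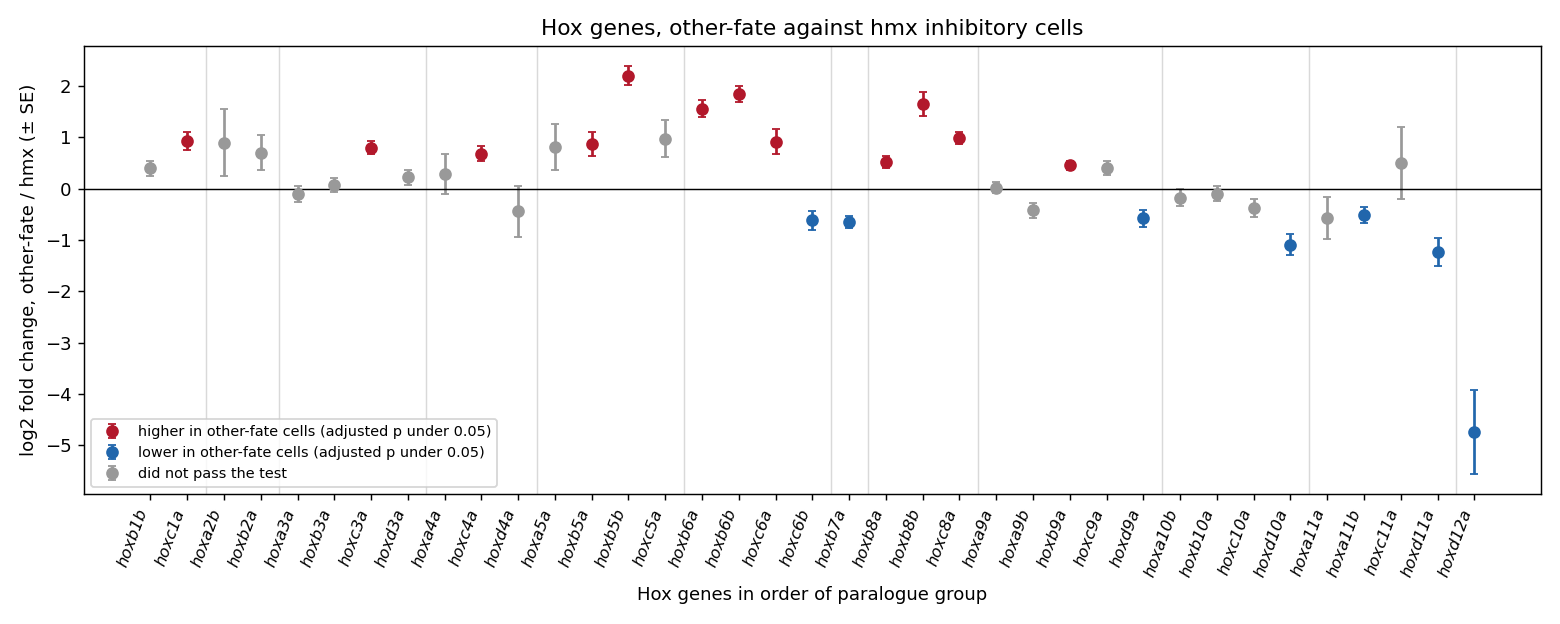
Log2 fold changes (other-fate over hmx cells, ± SE) of 37 Hox genes in order of paralogue group, with red for genes higher, blue for genes lower and grey for genes that did not pass the test. The 12 red genes lie in groups 1 to 9, with hoxb5b at 2.20, and hoxd12a stands lowest at -4.75.

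Hox genes record position along the body axis, with low paralogue numbers expressed to the front and high numbers restricted to the rear of the spinal cord. Of 37 Hox genes tested, 12 were higher and 7 lower in other-fate cells (median 0.39), against 6 higher and 7 lower of 36 among slc6a5 cells without slc6a1b. Over all genes of the whole comparison, 6.08% were higher and 4.99% lower. Split by paralogue group, a split chosen after the values were seen, groups 1 to 9 had 12 higher and 3 lower genes of 28 (median 0.60), and groups 10 to 13 had 0 higher and 4 lower genes of 9 (median -0.52). The higher genes lay mostly in groups 5 to 8, with 8 higher and 2 lower of 12 (median 0.94). Groups 1 to 4 had 3 higher and 0 lower of 11 (median 0.39), and group 9 had 1 higher and 1 lower of 5 (median 0.02). By DESeq2, groups 10 to 13 had 0 higher and 3 lower genes, and at an unadjusted p under 0.05 edgeR gave 0 higher and 4 lower. The 4 lower genes were hoxd10a, hoxd11a and hoxd12a of the HoxD cluster and hoxa11b (-0.52). The other genes tested in these groups did not pass, namely hoxa10b (-0.17), hoxb10a (-0.10), hoxc10a (-0.38), hoxa11a (-0.57) and hoxc11a (0.51). hoxb6b had 311 and 354 CPM in other-fate cells, against 101 and 89.4 CPM in hmx cells (1.84, SE 0.15, adjusted p = 1.18e-08). hoxb5b had 142 and 168 CPM in other-fate cells, against 31.7 and 39.3 CPM in hmx cells (2.20, SE 0.18, adjusted p = 2.38e-08). hoxc8a had 970 and 1096 CPM in other-fate cells, against 501 and 568 CPM in hmx cells (0.99, SE 0.12).

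At the other end, hoxd10a had 65.1 and 58.8 CPM in other-fate cells, against 143 and 134 CPM in hmx cells (-1.10, SE 0.20, adjusted p = 7.24e-04). hoxd11a had 14.8 and 25.3 CPM in other-fate cells, against 54.0 and 53.6 CPM in hmx cells (-1.24, SE 0.27, adjusted p = 3.60e-03). hoxd12a had 1 UMI in other-fate cells, against 30 and 20 UMIs in hmx cells of libraries 1 and 2. The order was not strict, as hoxb7a (-0.65), hoxc6b (-0.62) and hoxd9a (-0.58) of groups 1 to 9 were lower. Of these, hoxc6b and hoxd9a missed the threshold in 8 and 7 of 12 alternatives. hoxd12a lies 2 protein-coding genes from evx2 in the RefSeq annotation of assembly GRCz12tu, and evx2 is a selection gene that both sets lacked. Of the same HoxD cluster, hoxd9a, hoxd10a and hoxd11a were lower too, while hoxd3a (0.22) and hoxd4a (-0.44) did not pass. Position along the body axis and cluster cannot be told apart in these genes, and neither was tested.

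hoxb5b, hoxb6a, hoxb6b, hoxc1a and hoxc3a passed in all 3 families, with hoxb5b at 2.21 in en1b cells, 2.16 in gata2a, gata3 or tal1 cells and 2.15 in dmrt3a or lbx1a cells. Of 9 genes of groups 10 to 13, 3 were lower in en1b cells and 4 in dmrt3a or lbx1a cells. In gata2a, gata3 or tal1 cells 0 were lower. Over all genes, 3.62%, 4.6% and 1.65% were lower in the same order of families. Among slc6a5 cells without slc6a1b, hoxb5b, hoxb6a, hoxb6b, hoxb8b, hoxc3a, hoxc8a, hoxb7a, hoxd9a, hoxd10a, hoxa11b and hoxd12a still passed, and hoxb5a, hoxb8a, hoxb9a, hoxc1a, hoxc4a, hoxc6a, hoxc6b and hoxd11a did not. The position of single cells along the trunk was not recorded.

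Of the 2 neuropeptide genes with enough UMIs to test, penkb, a proenkephalin gene, was higher (2.80, SE 0.61, adjusted p = 3.35e-03). It had 1346 and 148 CPM in other-fate cells, against 32.6 and 121 CPM in hmx cells, so the gap lay almost wholly in library 1. Only 8 and 13 other-fate cells held its 455 and 163 UMIs, with up to 115 in 1 cell, and without en1b cells it gave -1.52 (adjusted p = 0.46). Of 90 cytosolic ribosomal protein genes, 43 were higher and 1 lower (median 0.26), with a summed level of 150445 and 145520 CPM in other-fate cells, against 139141 and 119752 CPM in hmx cells. The share over all genes was 6.08% higher and 4.99% lower. Among slc6a5 cells without slc6a1b, 0 of 89 were higher by edgeR (1 at an unadjusted p under 0.05) and 1 was lower (median -0.11), without the library term 0 of 90 passed, and without upper limits on depth 79 of 91 were higher (median 0.96).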

How the data were processed

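The deposited files hold counts of UMIs per gene and cell that the authors made with Cell Ranger 4.0.0 and the Lawson Lab zebrafish annotation. Partek is also named in the processing notes, and the genome build is not given in the sources used here. All values are integers that had not been normalized. Each file's smallest cell total was 500 UMIs. Cells with 500 to 2500 genes, at most 12000 UMIs and at most 6% mitochondrial UMIs were kept, as in the study, 3571 of 4373 and 4556 of 6223. No doublet caller was run, and doublets were treated only through the upper limits. Older symbols were matched by RefSeq synonyms (skor2 is zgc:153395, neff1 is zgc:65851, zfhx3b is zfhx3).

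UMIs were summed per library and class over 4 classes (other-fate, hmx, neither, evx2 cells) and tested with edgeR 4.0.16 in R 4.3.3 (TMM, filterByExpr, glmQLFit, library and class as terms, 8 sums). The 14 selection genes were left out. The families entered a second fit that held 12 sums. Sums held at least 20 cells. With the library as a term, p-values measure how far class differences disagreed between the 2 libraries, over all classes of a fit. They do not measure a spread between embryos, as nothing states that the libraries came from separate embryos. Tests were checked on simulated sums. Of genes set to 0.25-fold and 0.5-fold, 70.3% and 33.3% were recovered, and of genes set to 2-fold and 4-fold, 39.0% and 91.3%. Of the unchanged genes, 2 passed. The simulation drew sums rather than cells, so it cannot check genes whose UMIs lay in single cells. It also used a fixed dispersion for all genes and libraries that differed only in depth. Its rates therefore hold for such sums and need not hold for the real ones. Shares of cells were taken after thinning to 2000 UMIs. Python 3.11.15 (numpy 2.4.6, pandas 2.3.3, scipy 1.17.1) was used.

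Genes were named by rule: adjusted p under 0.05, the same sign in both libraries, at least 30 UMIs in all and 10 in each library on the higher side, and no clone name, then the 15 highest and 12 lowest fold changes, and the 4 highest per family. Members of the 36 lists could be named besides. The members, lists and tests were chosen with earlier results of these data known. The 12 alternatives with a test were a gate of 2 UMIs, no cells with both gene groups, 10% mitochondrial UMIs, no upper limits, thinning, slc6a5 cells without slc6a1b, no en1b cells, only the 4 sums, no library term, RLE scaling, DESeq2 1.42.0 and no filter. The values of some list members are not reported here.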

Additional observations from a re-analysis of the deposited data

How the results depend on the processing

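The 1049 genes that passed in the whole comparison became 621 with DESeq2 (620 of them shared), 697 among slc6a5 cells without slc6a1b (426 shared) and 422 in the fit without the replicate block, that is, without the library term (422 shared). In the other 9 alternatives the count stayed within 1.5 times. Among slc6a5 cells without slc6a1b, 414 of 8762 genes tested were higher and 283 lower. In en1b cells, 662 genes became 1255 without upper limits, 423 after thinning and 375 without the replicate block. In gata2a, gata3 or tal1 cells, 406 became 215 without the replicate block, and after thinning library 1 held under 20 such cells, so no value was given. In dmrt3a or lbx1a cells, 764 became 416 without upper limits, 502 after thinning and 345 without the replicate block. Counts without a library could not be given, because 1 library leaves no spread between samples. The library numbers are names only, and the labels themselves pair no samples. The block was used because cells of both sets came from each library.

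Of the 27 genes named by rule in the whole comparison, 22 passed in every alternative in which they were tested, counted in either direction. The 22 include foxd3, which passed in the opposite direction without en1b cells, while 26 of the 27 kept their direction throughout. Of the 116 list genes that passed and were examined, 36 passed in every alternative, again in either direction. Among slc6a5 cells without slc6a1b the sign turned, with no call, for scrt2 (-0.39), zfhx3b (-0.029), chrna2b (1.53), esrrb (-0.32), cacna1g (0.35), ier2b (0.21) and atf3 (0.21). Without en1b cells it turned for foxd3 (-3.07, adjusted p = 0.036), foxp4 (-0.083), penkb (-1.52) and her4.2 (-0.69), as their signal lay in the cells left out. Without cells of both gene groups her4.2 gave -0.25, and without upper limits ier2b gave 0.035 and atf3 0.17. The other causes were not tested. The smallest sums (20 cells, 70209 UMIs) limit the gata2a, gata3 or tal1 family most.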

Other observations

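A few further lists belong to no comparison above. Over all genes, 6.08% were higher and 4.99% lower in other-fate cells. Of 26 heat-shock genes, hsp90b1 was higher (0.76, adjusted p = 0.011) and none was lower, and the summed level of the list was 29652 and 10356 CPM in other-fate cells, against 35414 and 9330 CPM in hmx cells. Of 12 immediate early genes none was higher by edgeR (1 at an unadjusted p under 0.05, and 0 by DESeq2), and ier2b (-0.40) and atf3 (-0.47) were lower, calls that were each lost in 7 of 12 alternatives, DESeq2 among them. Among slc6a5 cells without slc6a1b, 2 of 11 were higher and 0 lower by edgeR (0 lower at an unadjusted p under 0.05). Of 6 progenitor genes her4.2 was higher (2.11), with 12 of its 17 UMIs of library 2 in 1 cell. The 1 cell cycle gene and the 2 cholinergic genes tested did not pass, and no gene of the notochord list or of the list of factors of other excitatory interneurons reached the filter.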
